A study of Mus musculus with 18 samples.

Results

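The genes described here are 33 members of the cholesterol and fatty acid synthesis programme that is switched on by the sterol regulatory element-binding proteins (SREBPs). They were chosen by gene symbol, and all 33 were found among the 18683 genes of the deposited table. By role they are 7 enzymes of the mevalonate pathway, 11 enzymes that turn its product into squalene and then sterols, 5 regulators of the SREBP system, the sterol carrier Stard4 and 9 enzymes that make, lengthen or desaturate fatty acids. The samples are RNA-seq libraries of prefrontal cortex and hippocampus from male mice on the strain C57BL/6J, in 3 groups per tissue with 3 libraries each. Wildtype mice were given PBS, 5xFAD mice were given PBS, and 5xFAD mice were given extracellular vesicles from human breast milk (HM-EVs), in every case into a vein every 3 days for 10 times between 5 and 6 months of age. All groups shared the injections, behavioural tests and perfusion with cold PBS, and no wildtype mice given vesicles were analysed here. 5xFAD mice carry human transgenes with familial Alzheimer's disease mutations, driven by the neuronal Thy1 promoter, so the transgenes are expressed mainly in neurons. Nothing in the labels states that the 3 libraries of a group came from separate mice, so the p-values speak only of the variation among these libraries, part of which may be technical.

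Cholesterol in the brain is made locally, because the blood-brain barrier keeps out the cholesterol of the circulation. The enzymes turn acetyl-CoA into mevalonate, mevalonate into isoprenoid units, and these into squalene, lanosterol and finally cholesterol. When sterols are scarce in the endoplasmic reticulum, the escort protein Scap carries the SREBPs to the Golgi, where they are cut to release a transcription factor. When sterols are plentiful, the Insig proteins hold Scap back. Srebf2 encodes the form that acts mainly on cholesterol genes and Srebf1 the form that acts mainly on fatty acid genes. In the adult brain astrocytes and myelinating oligodendrocytes are major sites of this synthesis.

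SREBPs bind the sterol regulatory element in promoters, usually beside CCAAT boxes bound by NF-Y. The RefSeq promoter table of build GRCm38.p6 held 26 of the 33 members, and each window was searched on both strands from 250 bases before to 50 bases after the transcription start. The sequences of 3 members that were higher in 5xFAD hippocampus are shown here, so that the motifs each one holds can be seen beside the others. Each is the 250 bases before the start, read 5′ to 3′ on the gene's own strand, with matches to TCACNCCAC (the sterol regulatory element), CCAAT or its reverse complement ATTGG, and CACGTG (the E-box, which SREBPs also bind) in capitals. They lie at chr13:119690101-119690350 on the plus strand (Hmgcs1), chr5:28071162-28071411 on the plus strand (Insig1) and chr8:64733579-64733828 on the minus strand (Msmo1).
Hmgcs1: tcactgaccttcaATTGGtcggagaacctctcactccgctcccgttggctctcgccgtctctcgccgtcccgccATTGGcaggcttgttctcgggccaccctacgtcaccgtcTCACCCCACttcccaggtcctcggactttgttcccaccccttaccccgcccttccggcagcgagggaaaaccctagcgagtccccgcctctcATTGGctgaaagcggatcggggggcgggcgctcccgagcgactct
Insig1: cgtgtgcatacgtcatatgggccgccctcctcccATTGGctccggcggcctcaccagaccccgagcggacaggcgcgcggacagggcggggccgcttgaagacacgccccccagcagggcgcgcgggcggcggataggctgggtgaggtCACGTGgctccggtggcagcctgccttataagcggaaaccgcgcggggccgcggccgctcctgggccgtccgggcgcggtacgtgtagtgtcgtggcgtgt
Msmo1: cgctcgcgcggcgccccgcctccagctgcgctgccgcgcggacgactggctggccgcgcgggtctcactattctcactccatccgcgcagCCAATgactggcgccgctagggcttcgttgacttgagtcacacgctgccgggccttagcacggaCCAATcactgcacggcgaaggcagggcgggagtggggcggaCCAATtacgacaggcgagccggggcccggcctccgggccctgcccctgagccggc
TCACNCCAC was found in 1 of the 26 genes, Hmgcs1, in 1 of their 34 promoters, and in 1.24% of the 32851 promoters searched. In Hmgcs1 the match TCACCCCAC began 137 bases before the start. CCAAT was found in 21 of the 26 genes, in 22 of their 34 promoters, and in 37.4% of all promoters searched. Insig1 held 1 CCAAT match, beginning 216 bases before the start, and an E-box beginning 101 bases before it. The E-box was found in 5 of the 26 genes, in 6 of their 34 promoters, and in 7.15% of all promoters searched. Acat2, which was also higher in 5xFAD hippocampus, held none of the 3 motifs in its window. In the printed sequences no match overlaps another. A match describes these letters only and was not tested as a site.

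The libraries held 26437852 to 36901744 reads on the listed genes. Members had between 198 reads (Tm7sf2) and 69334 reads (Scd2) in a library, so counting error is a larger part of the spread for the members with few reads. Region markers were in keeping with the tissue labels. Summed FPKM of hippocampal neuron markers was 111 to 155 in hippocampus and 28.8 to 47.5 in prefrontal cortex, and neocortical neuron markers summed to 43.4 to 69.8 in prefrontal cortex and 19.8 to 40.3 in hippocampus. Some libraries stand apart in choroid plexus markers, such as transthyretin. The sum of the 8 markers was 4.84 to 13.8 FPKM in 8 of the prefrontal cortex libraries and 864 in HM-EVs replicate 3. In hippocampus it was 35.6 to 169 in wildtype and 2620 to 8917 in 5xFAD PBS. In the hippocampus given HM-EVs it was 5706 and 2274 in replicates 1 and 2 and 187 in replicate 3.

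FPKM scales reads by gene length and library size, so levels can be set side by side between members. Over the 18 libraries the mean level spanned from 4.20 FPKM for Hsd17b7, an enzyme of the sterol ring, to 339 FPKM for Scd2, the stearoyl-CoA desaturase most abundant in brain. After Scd2 the most abundant members were Hmgcs1, which makes HMG-CoA, at 94.9 FPKM, and the fatty acid desaturases Fads1 at 75.8 and Fads2 at 67.2. The least variable member over all 18 libraries was Fads1, which ran from 69.0 to 82.9 FPKM. The most variable was Stard4, whose highest library was 2.75 times its lowest, followed by Srebf1 at 2.29 times and Tm7sf2, a sterol reductase, at 2.26 times.

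The first comparison asks how the 5xFAD transgenes change these genes in mice given PBS. In prefrontal cortex 4 of the 33 members rose and none fell by limma at an adjusted p under 0.05. They were the mevalonate enzyme Fdps, the sterol enzyme Nsdhl, the regulator Insig1 and the carrier Stard4, with log2 differences of 0.41 to 0.58. For all 13055 genes tested the share called was 1.96%. Including genes that did not pass, the log2 difference was above 0 for 28 of 33 members, with a median of 0.22 against 0.02 for all genes tested. All 33 members passed the filter on low values.

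Fdps makes farnesyl pyrophosphate, the branch point between sterols and other isoprenoids. Its FPKM in prefrontal cortex was 42.0, 41.7 and 37.5 in wildtype and 53.4, 66.7 and 54.5 in 5xFAD PBS. The groups did not overlap, 5xFAD PBS replicate 2 was the highest library, and the log2 difference was 0.52 ± 0.10 (SE, adjusted p = 0.025). Stard4, which moves cholesterol between membranes, measured 7.06, 6.46 and 7.39 FPKM in wildtype and 11.1, 10.9 and 9.96 in 5xFAD PBS. Again every 5xFAD library was above every wildtype library (log2 difference 0.58 ± 0.10, adjusted p = 0.015). Insig1, the sterol-sensing brake on SREBP release and itself an SREBP target, stood at 25.9, 28.9 and 25.2 FPKM in wildtype and 36.1, 35.0 and 35.4 in 5xFAD PBS. Its 5xFAD libraries were closer to each other than the wildtype libraries were (log2 difference 0.41 ± 0.07, adjusted p = 0.016). Nsdhl, which removes methyl groups from the sterol ring, had 13.1, 14.6 and 13.3 FPKM in wildtype and 20.1, 20.6 and 16.9 in 5xFAD PBS. Replicate 3 was the lowest 5xFAD library but still lay above wildtype (log2 difference 0.47 ± 0.10, adjusted p = 0.042).

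Among the other mevalonate enzymes all log2 differences in prefrontal cortex were above 0 without passing the test. They were 0.50 ± 0.13 for the decarboxylase Mvd (adjusted p = 0.13), 0.39 ± 0.10 for the thiolase Acat2 (adjusted p = 0.11), 0.37 ± 0.10 for the isomerase Idi1 (adjusted p = 0.13) and 0.31 ± 0.08 for the kinase Mvk (adjusted p = 0.11). Hmgcs1 was at 0.23 ± 0.11 and the phosphokinase Pmvk at 0.06 ± 0.13. Of the 11 sterol enzymes 9 had a difference above 0, with a median of 0.23, and the lanosterol demethylase Cyp51 and the desaturase Sc5d were at -0.04 and -0.03. In all, 18 of 33 members had every 5xFAD library above every wildtype library, where 9.75% of all genes tested did. With the replicate number as a block 5 members were called, the 4 above and Acat2 (adjusted p = 0.033). The labels do not say that replicate numbers pair these libraries, so this fit is an alternative only.

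These calls rest on few libraries. Without wildtype replicate 1 or 5xFAD PBS replicate 2, limma called 0 of 33 members, without wildtype replicate 3 (Stard4) or 5xFAD PBS replicate 1 (Fdps) it called 1, and without wildtype replicate 2 (Insig1 and Stard4) or 5xFAD PBS replicate 3 (Stard4 and Nsdhl) it called 2. Over these 6 fits the adjusted p ranged from 0.0063 to 0.083 for Insig1, from 0.034 to 0.074 for Stard4, from 0.048 to 0.12 for Fdps and from 0.037 to 0.19 for Nsdhl, while the median log2 difference of the members stayed between 0.20 and 0.25. With no filter on low values, and also with median-ratio scaling of the libraries, only Insig1 and Stard4 were called. The share of all genes called in these alternative fits is not given here.

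In hippocampus 9 of 33 members rose in 5xFAD PBS and none fell, where 4.59% of the 13305 genes tested were called. They were 3 mevalonate enzymes (Acat2, Hmgcs1, Fdps), 4 sterol enzymes (Fdft1, Sqle, Msmo1, Nsdhl), Insig1 and Stard4. None was a fatty acid enzyme. All 18 mevalonate and sterol enzymes had a log2 difference above 0, with a median of 0.34, and over all 33 members 30 were above 0 with a median of 0.19, against 0.02 for all genes tested. All 4 of the members called in prefrontal cortex were among the 9 of the hippocampus. The labels do not say whether both tissues came from the same mice, so the tissues cannot be taken as independent.

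Among the mevalonate enzymes, Acat2 joins acetyl-CoA units into acetoacetyl-CoA and measured 14.6, 16.4 and 16.3 FPKM in wildtype hippocampus and 20.5, 23.1 and 20.9 in 5xFAD PBS. Its groups did not overlap (log2 difference 0.44 ± 0.10, adjusted p = 0.033). Acat2 has a close neighbouring copy, Acat3, and how reads shared by the pair were counted is not given in the sources used here. Hmgcs1 was at 75.0, 70.5 and 62.6 FPKM in wildtype and at 96.1, 88.6 and 89.5 in 5xFAD PBS, with the groups apart (log2 difference 0.40 ± 0.09, adjusted p = 0.043). Fdps was at 34.1, 38.0 and 40.5 FPKM in wildtype and at 46.1, 59.7 and 51.9 in 5xFAD PBS (log2 difference 0.48 ± 0.11, adjusted p = 0.041). As in prefrontal cortex, the second 5xFAD library was the highest. Mvd and Mvk had differences of 0.47 ± 0.13 (adjusted p = 0.075) and 0.34 ± 0.11 (adjusted p = 0.12), Pmvk and Idi1 of 0.13 and 0.10.

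Squalene synthesis and oxidation are the first steps committed to sterols. Fdft1, squalene synthase, was at 13.2, 15.0 and 15.8 FPKM in wildtype hippocampus and at 19.8, 22.5 and 19.4 in 5xFAD PBS (log2 difference 0.48 ± 0.10, adjusted p = 0.028). The Fdft1 gene overlaps the gene of the lysosomal protease Ctsb, which rose by 0.69 ± 0.13 (adjusted p = 0.014) in the same comparison. The use of strand in counting is not given in the sources used here, so it is not known how reads in the stretch that both genes share were counted. Sqle, squalene epoxidase, which catalyses a rate-limiting step, was at 23.2, 21.5 and 22.3 FPKM in wildtype and at 33.1, 30.7 and 32.4 in 5xFAD PBS. The 2 groups were tight and far apart, with means of 22.3 ± 0.865 and 32.1 ± 1.26 (SD, n = 3) and a log2 difference of 0.51 ± 0.07, the lowest adjusted p of the members (0.0043).

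Later sterol steps held enzymes that passed the test and enzymes that did not. Msmo1, a sterol methyl oxidase, was at 40.0, 37.8 and 37.7 FPKM in wildtype hippocampus and at 54.7, 55.6 and 51.6 in 5xFAD PBS, without overlap (log2 difference 0.48 ± 0.09, adjusted p = 0.012). Nsdhl, the enzyme that acts after it, was at 10.5, 12.7 and 11.9 FPKM in wildtype and at 17.9, 19.5 and 18.4 in 5xFAD PBS. Its rise of 0.65 ± 0.10 (adjusted p = 0.0059), or 1.57-fold, had the highest point estimate of the 33. Cyp51, which acts on lanosterol earlier in the pathway than Msmo1, was at 0.02 ± 0.08, with a 95% interval from -10.7% to 14.9%. Sc5d was at 0.05 ± 0.07 and Dhcr7, which makes cholesterol from 7-dehydrocholesterol, at 0.14 ± 0.09, and neither passed the test.

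**Figure D1:**
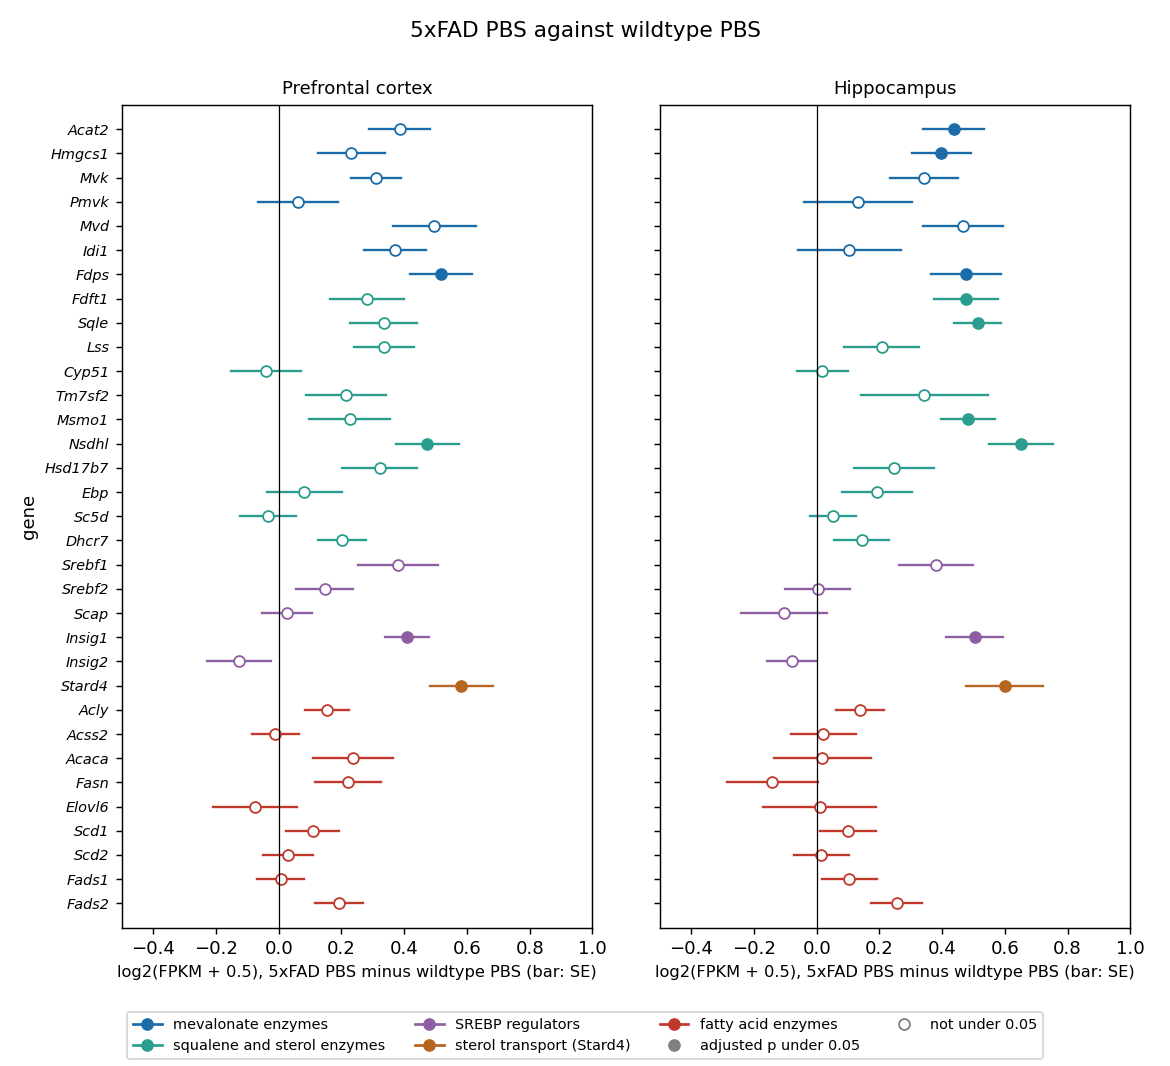
Difference in log2(FPKM + 0.5) between 5xFAD PBS and wildtype PBS (x axis) for each of the 33 members (y axis), prefrontal cortex on the left and hippocampus on the right. Points are limma estimates and bars their SE, colours give the role, and filled points have an adjusted p under 0.05: 4 in prefrontal cortex and 9 in hippocampus, with no filled point among the fatty acid enzymes. Over all genes tested 1.96% were called in prefrontal cortex and 4.59% in hippocampus.

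Insig1 and Stard4 were higher in 5xFAD hippocampus as well. Insig1 was at 19.1, 23.0 and 20.6 FPKM in wildtype and at 29.3, 28.9 and 30.9 in 5xFAD PBS (log2 difference 0.50 ± 0.09, adjusted p = 0.012). Stard4 was at 4.55, 4.61 and 4.30 FPKM in wildtype and at 7.85, 6.22 and 7.17 in 5xFAD PBS (log2 difference 0.60 ± 0.12, adjusted p = 0.024). Both sets of libraries were apart. The other regulators did not pass in either tissue. Insig2, the paralog of Insig1, had differences of -0.13 ± 0.10 in prefrontal cortex and -0.08 ± 0.08 in hippocampus, and Scap of 0.03 ± 0.08 and -0.10 ± 0.14. The genes of the SREBPs themselves differed in their values. Srebf2 was at 0.15 ± 0.09 and 0.00 ± 0.10, while Srebf1 was at 0.38 ± 0.13 (adjusted p = 0.32) and 0.38 ± 0.12 (adjusted p = 0.12), with 5xFAD libraries above wildtype in both tissues. These are transcript levels and do not measure the release of the proteins.

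**Figure D2:**
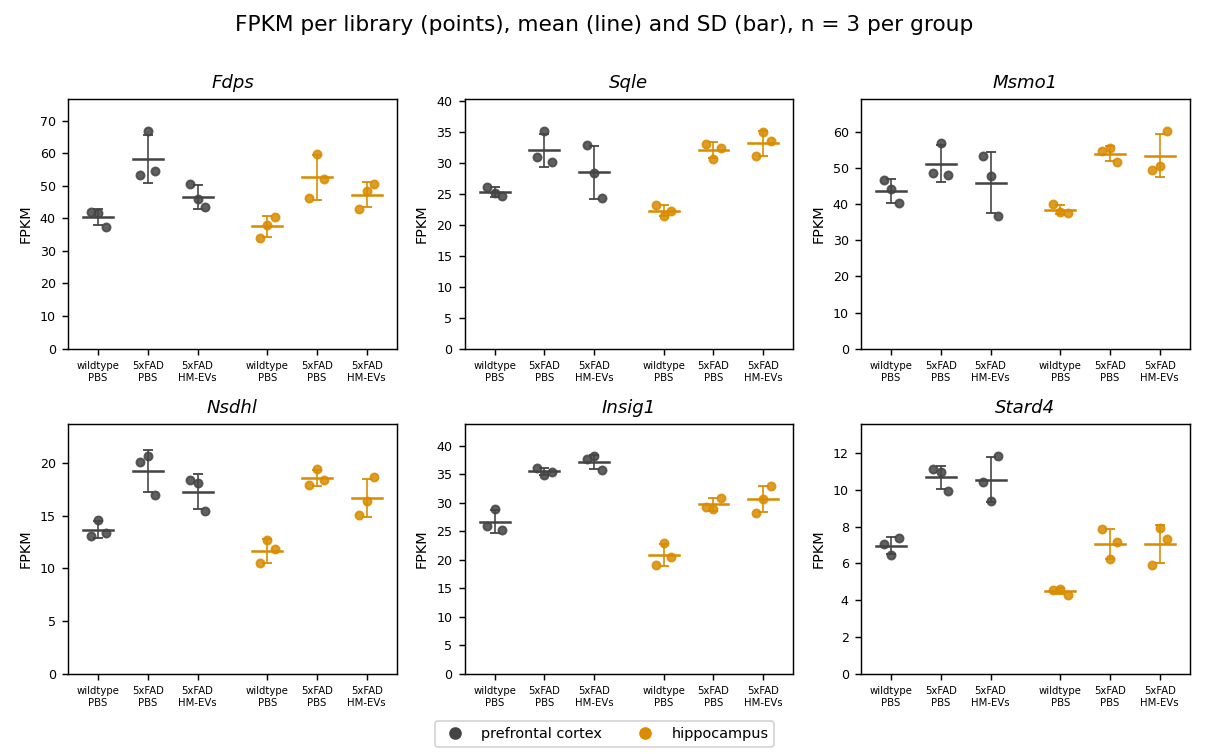
FPKM (y axis) of 6 members in each library, with the 3 groups of prefrontal cortex (grey) and of hippocampus (orange) along the x axis. Points are libraries, lines group means and bars SD (n = 3), and in hippocampus each 5xFAD library lies above the wildtype libraries for all 6 genes.

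The 9 fatty acid enzymes gave 0 calls in both tissues by limma, with 1 of 9 at an unadjusted p under 0.05 in each. Over all genes tested 1.96% were called in prefrontal cortex and 4.59% in hippocampus, so 0 of 9 is near the background. The voom alternative on recovered reads added none. Their median log2 difference was 0.11 in prefrontal cortex and 0.02 in hippocampus. The value nearest to a call was Fads2, the delta-6 desaturase of polyunsaturated fatty acids, with 64.0, 67.8 and 77.2 FPKM in wildtype hippocampus and 83.1, 81.4 and 84.5 in 5xFAD PBS. Those groups did not overlap, but the difference of 0.26 ± 0.08 did not pass (adjusted p = 0.12). Fasn, the fatty acid synthase, was at 0.22 ± 0.10 in prefrontal cortex and -0.14 ± 0.15 in hippocampus, and Acaca, which supplies its malonyl-CoA, at 0.24 ± 0.13 and 0.02 ± 0.15. Scd2 was at 0.03 ± 0.08 and 0.01 ± 0.09. Over the 9 enzymes the 95% intervals ran from -0.37 to 0.52 in prefrontal cortex and from -0.47 to 0.44 in hippocampus.

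In hippocampus 15 of 33 members had all 5xFAD libraries above all wildtype libraries, where 16.5% of all genes tested did. Of the 9 calls, Sqle and Nsdhl held in all 6 fits that left out 1 library (adjusted p up to 0.028 and 0.025). Msmo1 was lost without wildtype replicate 2 (0.064) and Insig1 without 5xFAD PBS replicate 3 (0.051). Fdps held only without 5xFAD PBS replicate 1, Fdft1 only without wildtype replicate 3 and Stard4 only without 5xFAD PBS replicate 2, with adjusted p up to 0.14, 0.10 and 0.085. Hmgcs1 (0.056 to 0.13) and Acat2 (0.068 to 0.12) were lost in all 6. The count of calls was 4, 3 and 5 without wildtype replicates 1, 2 and 3 and 5, 5 and 3 without 5xFAD PBS replicates 1, 2 and 3. Without a filter on low values the calls were Sqle, Nsdhl, Msmo1 and Insig1. For these fits too the share of all genes called is not given here. After a trend over gene length was removed from each library, an alternative added after the data were seen, the differences of Fdps and Acat2 shrank to 0.29 and 0.28.

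Other cell types moved in the same comparison. Of 10 microglia markers 9 rose in each tissue, and their summed FPKM went from 253 to 317 in wildtype to 683 to 685 in 5xFAD PBS prefrontal cortex and from 258 to 305 to 960 to 1068 in hippocampus. Astrocyte markers had 1 of 8 higher in prefrontal cortex and 2 of 8 in hippocampus, where the sum was 951 to 1109 in wildtype and 1340 to 1450 in 5xFAD PBS. Of the 8 oligodendrocyte markers 0 were called in prefrontal cortex by limma, with none at an unadjusted p under 0.05, and 1 was lower in hippocampus; their median log2 differences were -0.01 and -0.17. In bulk tissue a change in the number of cells of a type and a change in RNA per cell cannot be told apart, and the part of microglia, astrocytes and choroid plexus in these results was not tested. Of the 8 choroid plexus markers 7 were called higher in 5xFAD PBS hippocampus, with a median log2 difference of 3.71. Of the 4 tested in prefrontal cortex limma called 0, with 0 at an unadjusted p under 0.05. The choroid plexus sum in prefrontal cortex was 5.49 to 8.81 in 5xFAD PBS and 4.84 to 9.62 in wildtype. Hippocampus HM-EVs replicate 3 had a choroid plexus sum of 187 and the highest microglia sum of the 18 libraries, 1350 FPKM. In that library Sqle was at 33.5 FPKM, Msmo1 at 60.2 and Stard4 at 7.32, within or above the range of the 5xFAD PBS libraries. That library also had the fewest reads of the 18, 26437852. These values come from 1 library, and the part of cell types in them was not tested.

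The genotype difference was not shown to differ between the tissues. A test of the difference of differences over all 18 libraries called 0 of 33 members and 0 of the 13574 genes (0%), and the lowest adjusted p among members was 0.89. The point estimates of this difference ran from -0.36 to 0.26 over the members, with 95% intervals from -0.76 to 0.66. The higher count in hippocampus is therefore not a tested difference.

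The enzymes of the cholesterol branch can be summarised per library. Taking each library's mean deviation from the wildtype mean over the 18 mevalonate and sterol enzymes, wildtype prefrontal cortex lay at 0.04, 0.03 and -0.07 on the log2 scale and 5xFAD PBS at 0.23, 0.36 and 0.21. In hippocampus wildtype lay at -0.03, 0.03 and 0.00 and 5xFAD PBS at 0.29, 0.35 and 0.31. Both tissues therefore had 5xFAD PBS libraries above every wildtype library. The same mean over the 9 fatty acid enzymes was -0.03, -0.03 and 0.05 in wildtype prefrontal cortex and 0.11, 0.05 and 0.13 in 5xFAD PBS, where the groups overlapped. In hippocampus it was 0.02, -0.02 and 0.00 in wildtype and 0.10, -0.04 and 0.12 in 5xFAD PBS, also with overlap. These means describe the libraries and carry no test. Within groups, 5xFAD PBS replicate 2 had the highest value of its group for 13 of the 18 enzymes in prefrontal cortex. Each library's deviation from its tissue mean was also fitted over log2 gene length. The slope was -0.080 in that library, against 0.027 and 0.0045 in replicates 1 and 3. Wildtype replicate 2 of prefrontal cortex, with a slope of -0.10, was highest for 5 of the 18. In hippocampus 5xFAD PBS replicate 2 was highest of its group for 9 of the 18, with a slope of -0.165. The slopes of 5xFAD PBS replicates 1 and 3 were 0.036 and -0.025 there. Those of wildtype hippocampus replicates 1, 2 and 3 were 0.106, 0.014 and -0.051. The part of gene length in these positions was not tested.

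**Figure D3:**
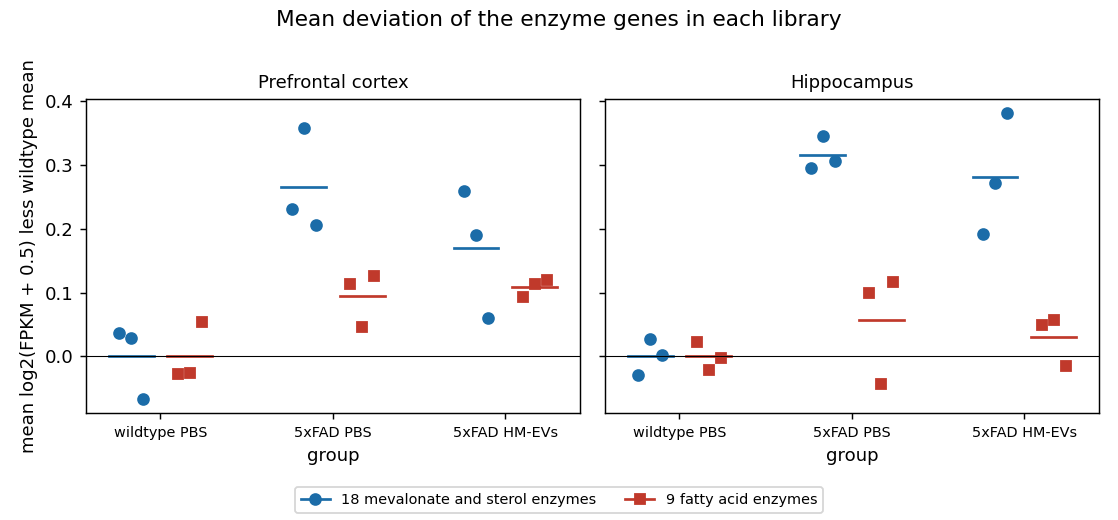
Mean deviation of log2(FPKM + 0.5) from the wildtype mean of the same tissue (y axis) in each library, over 18 mevalonate and sterol enzymes (blue circles) and 9 fatty acid enzymes (red squares), with lines at group means. The blue points of 5xFAD PBS lie between 0.21 and 0.36 and those of HM-EVs between 0.06 and 0.38, while the red points of all 5xFAD libraries lie between -0.04 and 0.13.

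The second comparison asks whether the vesicles change these genes in 5xFAD mice. It shares its 5xFAD PBS libraries with the genotype comparison, where members were called for high values in them. A lower value with HM-EVs is therefore not separate evidence of a return toward wildtype. None of the 33 members passed the test in either tissue, and limma called 0% of all genes (0 of 13055 in prefrontal cortex and 0 of 13305 in hippocampus). At an unadjusted p under 0.05 there were 616 genes in prefrontal cortex, 2 of them members, and 519 in hippocampus with 0 members. The voom alternative also called 0 genes in each tissue.

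In prefrontal cortex the 7 mevalonate enzymes all had point estimates below 0 with a median of -0.17, and 8 of the 11 sterol enzymes were below 0 with a median of -0.02. For Fdps the 3 libraries given HM-EVs had 50.6, 46.0 and 43.4 FPKM, all below the 5xFAD PBS libraries and above the wildtype libraries. Its log2 difference from 5xFAD PBS was -0.31 ± 0.10 (adjusted p = 0.82), with a 95% interval from -30.9% to -6.07% that is not corrected for the number of genes. Mvk was the other member with all HM-EVs libraries below all PBS libraries, at 10.2, 9.86 and 9.18 FPKM against 11.0, 12.2 and 11.0 (log2 difference -0.22 ± 0.08, adjusted p = 0.82). Such a lower position held for 3.94% of all genes tested, and Scd2 was the 1 member in the opposite position, which held for 6.68%. Insig1 and Stard4 were at 0.07 ± 0.07 and -0.02 ± 0.10, with 95% intervals from -6.14% to 16.8% and from -15.4% to 14.9%.

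In hippocampus 14 members had point estimates above 0 and 19 below, with a median of -0.02, the same as for all genes tested. Sqle was at 31.1, 35.1 and 33.5 FPKM with HM-EVs, overlapping the 5xFAD PBS libraries (log2 difference 0.05 ± 0.07, 95% interval from -7.86% to 16.2%). Msmo1 was at 49.7, 50.7 and 60.2 FPKM, with the PBS libraries inside that range (-0.02 ± 0.09). Nsdhl was at 15.0, 16.4 and 18.6 FPKM, with 2 libraries below the PBS group and 1 within it (-0.16 ± 0.10, 95% interval from -23.3% to 5.06%). Fads2 had its HM-EVs libraries, at 77.7, 76.0 and 75.3 FPKM, below the PBS libraries, as 5.21% of all genes did, and Sc5d had them above, as 2.30% did. Over the 33 members the 95% intervals ran from -0.53 to 0.42 in prefrontal cortex and from -0.73 to 0.48 in hippocampus. The missing calls do not show that the groups are alike.

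**Figure D4:**
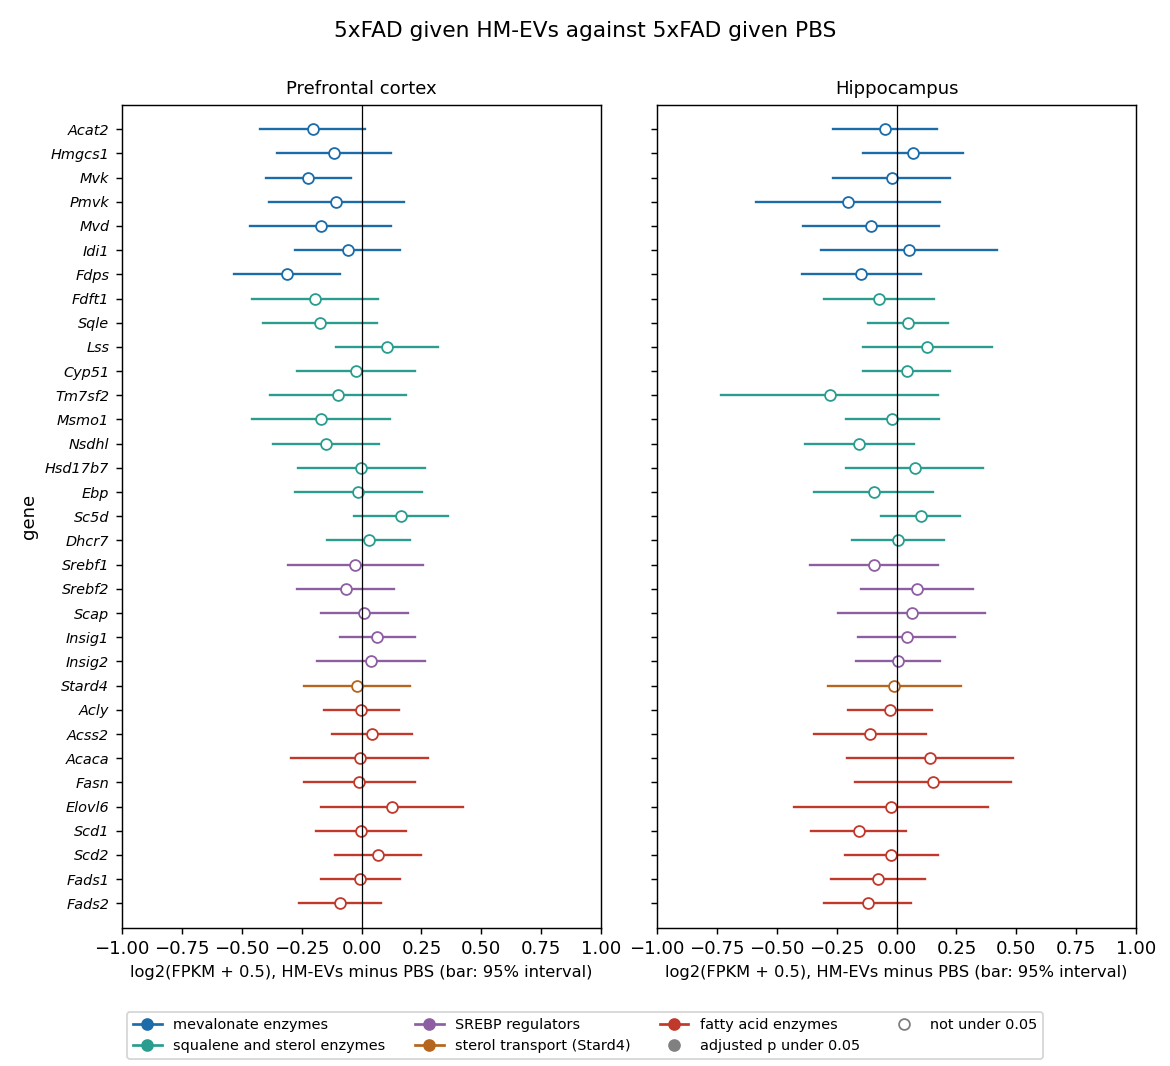
Difference in log2(FPKM + 0.5) between 5xFAD mice given HM-EVs and 5xFAD mice given PBS (x axis) for the 33 members (y axis), with 95% intervals from limma as bars and colours for the role. No point is filled, since none has an adjusted p under 0.05, and the 7 mevalonate enzymes lie left of 0 in prefrontal cortex.

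The libraries given HM-EVs were spread in their cholesterol enzymes. In prefrontal cortex the mean over the 18 cholesterol enzymes was 0.26, 0.19 and 0.06 in replicates 1, 2 and 3. Replicate 1 had the highest value of its group for 13 of the 18 enzymes and replicate 3 the lowest for 13, for example Msmo1 at 53.4, 47.7 and 36.8 FPKM and Sqle at 32.9, 28.4 and 24.3. For both genes replicate 3 lay below every wildtype library, and it is the library with the choroid plexus sum of 864. Its microglia sum was the lowest of its group, at 504 against 692 and 549. In hippocampus the means were 0.19, 0.27 and 0.38, with replicate 1 lowest for 13 of the 18 enzymes and replicate 3 highest for 12. There replicate 3 had a microglia sum of 1350, against 769 and 745 in replicates 1 and 2. The libraries also differed in technical traits. Their slopes over gene length were 0.0002, 0.015 and 0.055 in prefrontal cortex replicates 1, 2 and 3. In hippocampus the slopes were 0.057, 0.089 and -0.059, and replicate 3 had the fewest reads of all libraries, 26437852. Whether microglia, choroid plexus tissue, gene length or depth has a part in this spread was not tested. Without HM-EVs replicate 3 of prefrontal cortex the vesicle comparison still called 0 members, with a median over members of -0.01.

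Against wildtype mice, 5xFAD mice given HM-EVs had 2 members higher and none lower in prefrontal cortex, and 6 higher and none lower in hippocampus. This comparison shares its wildtype libraries with the genotype comparison, so the values are given side by side and are not a second line of evidence. In prefrontal cortex Insig1, at 37.7, 38.1 and 35.8 FPKM, was higher by 0.48 ± 0.07 (adjusted p = 0.0079), beside 0.41 for 5xFAD PBS. Stard4, at 10.4, 9.41 and 11.8 FPKM, was higher by 0.56 ± 0.10 (adjusted p = 0.020), beside 0.58. No library of either gene overlapped wildtype. Fdps was at 0.20 ± 0.10 (adjusted p = 0.36) beside 0.52, and Nsdhl at 0.33 ± 0.10 (adjusted p = 0.18) beside 0.47. The share called over all genes was 1.52%.

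In hippocampus the 6 members higher with HM-EVs than in wildtype were Sqle at 0.56 ± 0.07 (adjusted p = 0.0039), Insig1 at 0.55 ± 0.09 (0.013), Msmo1 at 0.47 ± 0.09 (0.023), Hmgcs1 at 0.47 ± 0.09 (0.033), Nsdhl at 0.50 ± 0.10 (0.037) and Stard4 at 0.59 ± 0.12 (0.042). The libraries of Hmgcs1 read 87.2, 102 and 98.6 FPKM, those of Insig1 28.3, 30.7 and 33.0 and those of Stard4 5.90, 7.93 and 7.32, all above wildtype. The share called over all genes was 2.10%. None of the 9 fatty acid enzymes was called in either tissue by limma, with 0 of 9 at an unadjusted p under 0.05 and 0 called by voom. Beside shares of 1.52% in prefrontal cortex and 2.10% in hippocampus, 0 of 9 is near the background.

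The calls against wildtype also depended on single libraries. In prefrontal cortex Insig1 no longer passed once wildtype replicate 1 was left out (adjusted p = 0.054), nor did Stard4 without wildtype replicates 1 or 2 or HM-EVs replicate 1 (0.088, 0.056 and 0.074). The median of the members was 0.12, and 0.21 without HM-EVs replicate 3. In hippocampus the count was 1, 2 and 1 without wildtype replicates 1, 2 and 3 and 6, 1 and 3 without HM-EVs replicates 1, 2 and 3. Sqle was called in all 6 of these fits, for which the share of all genes called is not given here. When only the 6 libraries compared were fitted, Stard4 was not called in either tissue (0.079 and 0.067), and in hippocampus Hmgcs1, Msmo1 and Nsdhl were also lost (0.078, 0.060 and 0.090).

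The third comparison sets hippocampus against prefrontal cortex within each group. Of the 33 members 6 differed in wildtype, 6 in 5xFAD PBS and 4 in HM-EVs, beside 15.9%, 25.1% and 16.9% of the 13574 genes tested, so that the members stood near or under the background. In all 3 groups Stard4, Insig1 and Acly were lower and Fads2 higher in hippocampus. Hmgcs1 was lower and Srebf1 higher in hippocampus in wildtype and in 5xFAD PBS.

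Stard4 had the widest difference between tissues in each group. From the libraries given above it was lower in hippocampus by -0.58 ± 0.11 in wildtype (adjusted p = 0.0016), -0.56 ± 0.11 in 5xFAD PBS (adjusted p = 0.0016) and -0.55 ± 0.11 in HM-EVs (adjusted p = 0.0024) on the log2 scale. The range of 5xFAD PBS hippocampus, 6.22 to 7.85 FPKM, overlapped that of wildtype prefrontal cortex, 6.46 to 7.39. Insig1 was at -0.35 ± 0.08, -0.25 ± 0.08 and -0.28 ± 0.08 in the 3 groups (adjusted p = 0.0049, 0.025 and 0.021). Hmgcs1 was at 102, 93.0 and 92.3 FPKM in wildtype prefrontal cortex, clear of the 62.6 to 75.0 of wildtype hippocampus (-0.46 ± 0.10, adjusted p = 0.0044), and at -0.30 ± 0.10 in 5xFAD PBS (adjusted p = 0.042).

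Acly, which makes cytosolic acetyl-CoA for both branches, was at 26.7, 25.8 and 28.7 FPKM in wildtype prefrontal cortex and at 22.6, 21.6 and 22.6 in wildtype hippocampus, without overlap. Its differences were -0.27 ± 0.07, -0.29 ± 0.07 and -0.31 ± 0.07 in the 3 groups (adjusted p = 0.011, 0.0058 and 0.0042). Fads2 was at 50.6, 58.1 and 54.1 FPKM in wildtype prefrontal cortex, below all hippocampal libraries. It was higher in hippocampus by 0.36 ± 0.08, 0.42 ± 0.08 and 0.39 ± 0.08 (adjusted p = 0.0034, 8e-04 and 0.0018). Its partner Fads1, the delta-5 desaturase, was not called in any group. Srebf1 was at 5.62, 7.55 and 7.42 FPKM in wildtype prefrontal cortex and at 7.82, 9.49 and 10.5 in hippocampus, or 0.41 ± 0.13 higher (adjusted p = 0.037). In 5xFAD PBS it was 0.41 ± 0.13 higher (adjusted p = 0.026) and in HM-EVs 0.34 ± 0.13 (adjusted p = 0.078). The gene of Srebf1 overlaps Rai1, so the same limit on strand holds.

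**Figure D5:**
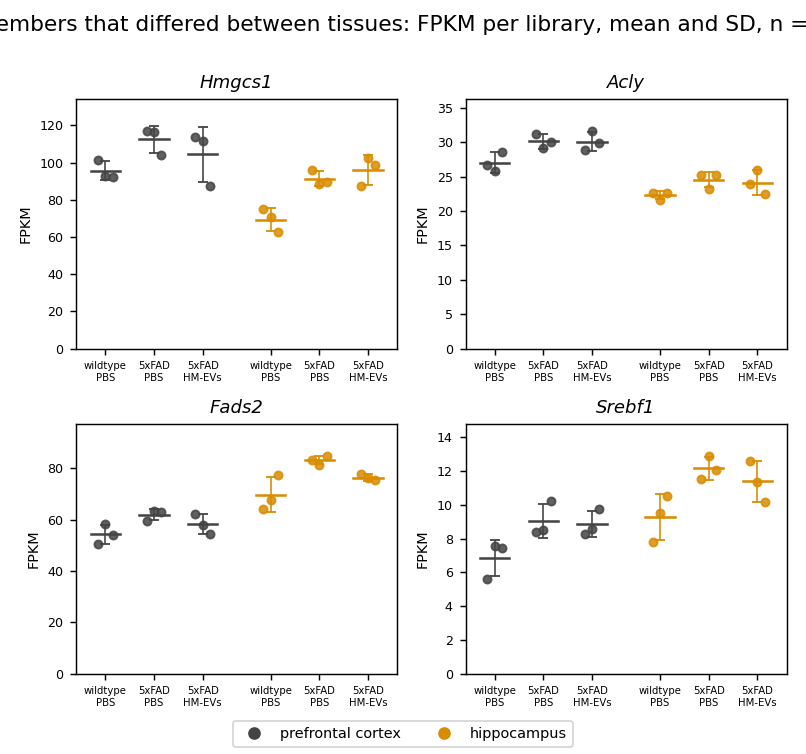
FPKM (y axis) of Hmgcs1, Acly, Fads2 and Srebf1 in each library, with the 3 groups of prefrontal cortex (grey) and of hippocampus (orange) along the x axis, lines at means and bars for SD (n = 3). In wildtype, Hmgcs1 and Acly lie lower and Fads2 and Srebf1 higher in hippocampus.

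Cell type markers differed between the tissues too. Oligodendrocyte markers were higher in hippocampus for 7, 7 and 6 of 8 in the 3 groups, with summed FPKM of 1469 to 1712 against 878 to 1211 in wildtype, and neuron markers were lower for 2, 5 and 4 of 6. The part of cell composition in the tissue differences was not tested. Stard4, Fads2, and in wildtype Hmgcs1 and Insig1, were called in every fit that left out 1 library. Acly was lost in wildtype without prefrontal cortex replicate 3 (adjusted p = 0.061). In 5xFAD PBS Insig1 was lost without prefrontal cortex replicates 1 or 3 or hippocampus replicates 1 or 2 (0.081, 0.063, 0.062 and 0.086) and Hmgcs1 without prefrontal cortex replicates 1 or 2 or hippocampus replicates 2 or 3 (0.14, 0.11, 0.13 and 0.095). In HM-EVs Insig1 was lost without prefrontal cortex replicates 1 or 2 or hippocampus replicates 1 or 2 (0.058, 0.071, 0.11 and 0.053). Srebf1 was lost in wildtype without prefrontal cortex replicate 1 or hippocampus replicates 2 or 3 (0.20, 0.10 and 0.17) and in 5xFAD PBS without replicates 1 or 2 of prefrontal cortex or 2 or 3 of hippocampus (0.10, 0.082, 0.097 and 0.051). With the trend over gene length removed, 12 members instead of 6 differed between tissues in 5xFAD PBS, the added ones all lower in hippocampus. The share of all genes called in that fit is not given here, so the rise in count cannot be read as particular to the members. The vesicle effect was not shown to differ between tissues either, with 0 of 33 members and 0% of all genes called (lowest adjusted p among members 0.995).

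A list of 52 other genes around this pathway was looked at in the same fits. In the genotype comparison 3 of 51 tested rose in prefrontal cortex, where 1.96% of all genes tested were called, and 3 of 52 in hippocampus, where 4.59% were, and none fell. The hippocampal share is close to that of all genes. They were the same 3 in both tissues: Ch25h, which makes 25-hydroxycholesterol, an oxysterol that holds back SREBP processing, at 1.24 ± 0.22 and 2.26 ± 0.30 (adjusted p = 0.016 and 0.0028), Npc2, which carries cholesterol out of lysosomes, at 0.67 ± 0.08 and 1.14 ± 0.15 (adjusted p = 0.0017 and 0.0023), and Mlxipl, a sugar-responsive activator of fatty acid synthesis genes, at 0.85 ± 0.15 and 0.80 ± 0.17 (adjusted p = 0.016 and 0.027). The median of the list was 0.05 in prefrontal cortex and 0.12 in hippocampus. The 10 genes of SREBP processing and turnover on that list gave 0 calls by limma in both tissues, with 0 and 3 of them at an unadjusted p under 0.05. The vesicle comparison called none of the 52, with 1 gene in each tissue at an unadjusted p under 0.05.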

How the data were processed

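The authors deposited 1 table of FPKM values for 18 libraries, and all its columns matched a sample by name. Per the submitters' processing notes fastp, HISAT2 and HTSeq were used with GRCm39. Versions, the annotation and whether counting used strand are not stated in any source used here. Within a gene the deposited FPKM values were whole multiples of 1 read for 100% of genes (relative tolerance 1e-09), which gave the reads per library.

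Tests ran on log2(FPKM + 0.5), which understates changes of low genes. limma 3.58.1 (R 4.3.3) was fitted to the 9 libraries of a tissue, or to all 18 for comparisons between tissues, with eBayes and an intensity trend. Genes needed at least 0.5 FPKM in at least 3 libraries. Tests were two-sided, with Benjamini-Hochberg adjustment across every gene tested, and an adjusted p under 0.05 was called. Values after ± are SE unless SD is stated. The code was tested on simulated counts. Members called in a comparison are given with every library, others by count, range or role. The members, lists and rules were chosen with earlier results of these data known. Only between wildtype and 5xFAD PBS in prefrontal cortex did every pair of same-numbered libraries deviate alike from its group mean, with correlations of 0.213, 0.509 and 0.169, so the value with a replicate block is given there. This pairing comes from the values, not from the labels. Only replicate 2 was the best match of its own number in both directions. The block also spans the HM-EVs libraries, whose correlations with same-numbered 5xFAD PBS libraries were 0.005, -0.03 and 0.16. The fit with the block is therefore an alternative and does not show pairing. Alternatives changed the pseudocount, filter, scaling, libraries and model. Promoters are RefSeq sequences of GRCm38.p6, another build than that of the table.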

Additional observations from a re-analysis of the deposited data

How the results depend on the processing

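Of 37 calls of a member in a comparison, none changed direction under any alternative. Pseudocounts of 0.1 and 1 kept all 37, voom on recovered reads kept 33, quantile normalization 32, the replicate block 32, median-ratio scaling 31, fitting only the groups compared 27 and no filter on low values 24. Removing the length trend, added after the data were seen, kept 35, and with the block 32. The number of members called fell without the filter from 4 to 2 (5xFAD PBS against wildtype, prefrontal cortex), from 9 to 4 (hippocampus), from 2 to 1 (HM-EVs against wildtype, prefrontal cortex) and from 6 to 3 (hippocampus). Median-ratio scaling gave 2 for 5xFAD PBS against wildtype in prefrontal cortex. Fitting only the groups compared gave 1 and 2 for HM-EVs against wildtype in prefrontal cortex and hippocampus, and 2 for the tissues in HM-EVs. With the replicate block HM-EVs against wildtype had 3 in hippocampus, and block and length trend together gave 1 in prefrontal cortex. The tissues in 5xFAD PBS had 12 with the length trend removed and 13 with the block as well. Except in 5xFAD PBS against wildtype in prefrontal cortex, same-numbered libraries did not all correlate above 0.1 in any comparison of 2 groups. In that exception only replicate 2 was the best match of its own number in both directions, so pairing by number is not shown there either. The share of all genes called under each alternative is not given here, so the counts of members above have no background beside them. The cause of the changes in count was not tested.

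Leaving out 1 library gave 0 to 2 members for 5xFAD PBS against wildtype in prefrontal cortex and 3 to 5 in hippocampus, 0 to 2 and 1 to 6 for HM-EVs against wildtype, and 0 to 0 for HM-EVs against PBS in both tissues and for the 2 differences of effects between tissues. For the tissues it gave 5 to 7 in wildtype, 3 to 6 in 5xFAD PBS and 3 to 4 in HM-EVs. The share of all genes called in these fits is not given here. Whether the members lost more calls than all genes did cannot be read from these counts. Each member had at least 198 reads in each library. The shares of read sampling and of other variation in the spread were not separated.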
